A study of Mus musculus with 12 samples.

Results

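CatSper is the calcium channel of the sperm tail, and the genes described here are those of its pore-forming subunits Catsper1, Catsper2, Catsper3 and Catsper4, of its auxiliary subunits Catsperb, Catsperg1 and Catsperg2, and of 2 further ion transport proteins of sperm. These are Slc9a10, the sperm sodium-proton exchanger, and Kcnu1, the sperm potassium channel. The 9 genes were chosen by symbol, through the Ensembl identifiers of the deposited tables and the GENCODE M1 annotation of mm9. They are 9 of 37675 genes listed, and all 9 were among the 16860 genes that could be tested. No measured value was used to choose them.

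The study followed the first wave of spermatogenesis in untreated male C57BL/6NHsd mice, an inbred laboratory strain, in which germ cells of the first wave pass through each stage at about the same age. RNA of the whole testis was sequenced at postnatal day (PND) 7, 14, 17, 21 and 28 from 2 mice an age. This makes 10 mice and 5 groups, which the labels tell apart by age. The run or batch of each library is not given in the sources used here, so that any part of it cannot be told apart from age. The ages were chosen for the germ cells that appear in turn: spermatogonia, early spermatocytes, late spermatocytes, round spermatids and elongating spermatids. The RNA of each PND 7 mouse was sequenced under 2 barcodes, which were joined here. The mixture of cells changes with age and no cell type was separated, so that more cells of a type and more RNA per cell cannot be told apart in any value below.

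The CatSper channel sits in the membrane of the principal piece of the sperm tail, where its opening lets calcium in and starts the vigorous beating known as hyperactivation. The channel is built from 4 different pore-forming subunits, one copy of each, and mice that lack any of them make sperm that fail to fertilize. The auxiliary subunits, among them beta (Catsperb) and gamma (Catsperg1 and Catsperg2), form a large cap and supports around the pore. Channel opening depends on the pH inside the cell and on the membrane voltage, which the sodium-proton exchanger and the KCNU1 potassium channel help to set. All of these proteins act in mature sperm, while their genes are transcribed in germ cells of the testis well before sperm are released.

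The depth of the mice ranged from 3994026 to 13559548 counted reads, and both extremes were PND 17 mice. Where no read was seen, up to 3 cannot be told from 0, which comes to 0.209 to 0.726 CPM (reads scaled to a common library size) depending on the mouse. Marker levels are given here as sums over each list. Over the 5 spermatocyte markers (Sycp1, Sycp3, Hormad1, Piwil1 and Spo11), the RPKM, a read count scaled by exon length and by the reads of the library, was 89.3 and 80.9 at PND 7 and 432 to 708 in the mice of the later ages. Over 5 round spermatid markers (Acrv1, Acr, Spaca1, Izumo1 and Tssk1) the sum was 2.16 to 27.9 until PND 17, 158 and 99.1 at PND 21, and 569 and 532 at PND 28. Markers of Sertoli cells (Amh, Sox9, Wt1 and Gata1) went from 74.0 and 62.2 at PND 7 to 12.1 and 15.7 at PND 28 in summed RPKM, with 3 of 4 called lower over PND 17/28. Gata1 first rose, from a mean of 10.0 RPKM at PND 7 to 24.2 at PND 14 and 20.2 at PND 17. Of the 4 markers, 1 was called higher at PND 7/14.

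PND 14 mouse 1 stood apart from PND 14 mouse 2, its partner at that age. Over 5 elongating spermatid markers (Prm1, Prm2, Tnp1, Tnp2 and Odf1), which package the sperm DNA or build the tail, the summed RPKM was 448 in mouse 1 and 16.8 in mouse 2, beside 17.9 and 16.8 at PND 17. Prm1 alone was at 133 RPKM in mouse 1 and 2.46 in mouse 2, and all 5 markers were 12 to 54.2 times as high in mouse 1. Catsper1, Catsper3 and Catsper4 were 20.9, 12.2 and 23.1 times as high in mouse 1 as in mouse 2, at 1.46, 1.34 and 1.62 RPKM against 0.07, 0.11 and 0.07 RPKM. In mouse 1 these 3 genes stood at 6.24%, 2.71% and 2.95% of their PND 28 means, and the 5 markers at 3.10% to 10.4% of theirs. The spermatocyte markers, in contrast, were 0.622 to 0.758 times as high in mouse 1 as in mouse 2. The 5 round spermatid markers were 1.16 to 6.73 times as high in mouse 1, with Acrv1 and Tssk1 at 6.36 and 6.73 times, and the 4 Sertoli cell markers 1.10 to 2.69 times. The part of this library in the results at PND 14 was not tested, and values with and without it are given below.

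**Figure D1:**
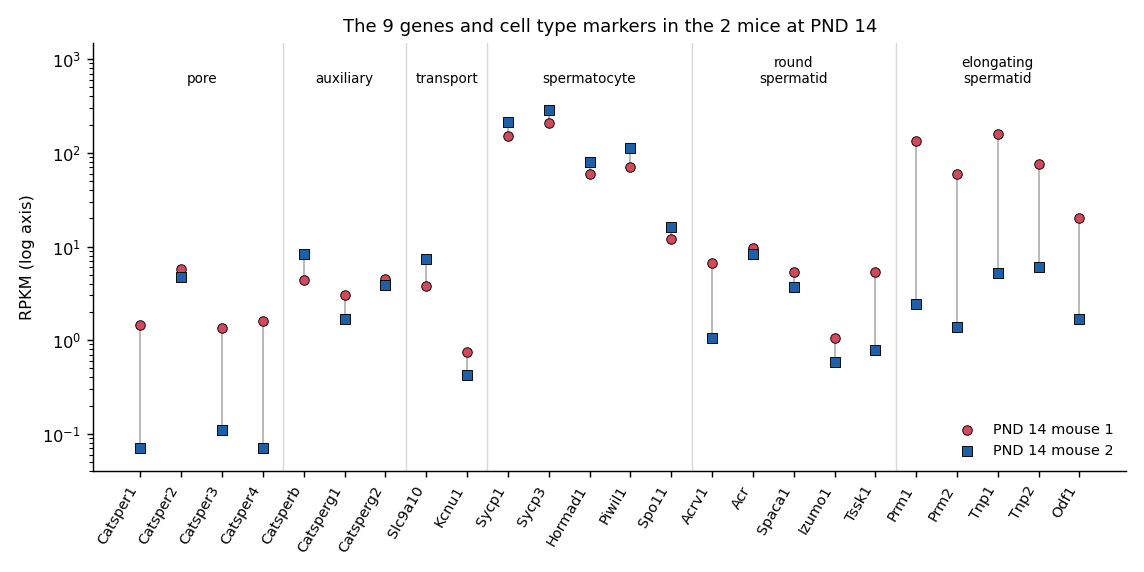
RPKM on a log axis (y) of the 9 genes and of markers of spermatocytes, round spermatids and elongating spermatids (x) in the mice at PND 14, with circles for mouse 1 and squares for mouse 2. All 5 elongating spermatid markers, and with them Catsper1, Catsper3 and Catsper4, lie more than 10 times higher in mouse 1, while Catsper2 lies at 5.75 and 4.77 RPKM.

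The pore-forming subunits did not share a time course. Pairs of values are given as mouse 1 and mouse 2 of an age. Catsper1 (ENSMUSG00000038498, mm9 chr19:5335741-5344153, plus strand) had 0 reads in both PND 7 mice, 1.46 and 0.07 RPKM on PND 14, 0.07 and 0.12 on PND 17, 8.21 and 4.65 on PND 21, and 23.7 and 23.1 on PND 28. Up to PND 17 it was thus at or near 0 in every mouse except PND 14 mouse 1, and the PND 21 and PND 28 mice did not overlap. Both PND 17 mice together held 3 reads of Catsper1, against 126 in the PND 21 mice and 667 in the PND 28 mice.

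Catsper3 (ENSMUSG00000021499, mm9 chr13:55885929-55910359, plus strand) followed the same course. It was at 0.345 and 0 RPKM on PND 7, 1.34 and 0.11 on PND 14, 0.34 and 0.57 on PND 17, 12.4 and 7.29 on PND 21, and 51.0 and 47.9 on PND 28. At PND 28 all 11 of its exons held more than 10 reads in both mice, and at PND 17 none did in either. Catsper4 (ENSMUSG00000048003, mm9 chr4:133767885-133783298, minus strand) was at 0.06 and 0.35 RPKM on PND 7, 1.62 and 0.07 on PND 14, 0.07 and 0.12 on PND 17, 11.3 and 6.11 on PND 21, and 52.1 and 57.9 on PND 28. Like Catsper1 it held 3 reads over both PND 17 mice, and it had 173 at PND 21 and 1569 at PND 28.

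Catsper2 (ENSMUSG00000033486, mm9 chr2:121218367-121240317, minus strand) was the pore subunit that was read well at the earlier ages. It had 1.07 and 0.16 RPKM on PND 7, 5.75 and 4.77 on PND 14, 6.63 and 3.22 on PND 17, 40.3 and 16 on PND 21, and 38.4 and 39.1 on PND 28. The PND 14 and PND 17 mice overlapped, and PND 21 mouse 1 was as high as the PND 28 mice while PND 21 mouse 2 was lower. Catsper2 shares 18 exon bases with Pdia3 on the opposite strand, and whether strand was used in counting is not given in the sources used here.

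**Figure D2:**
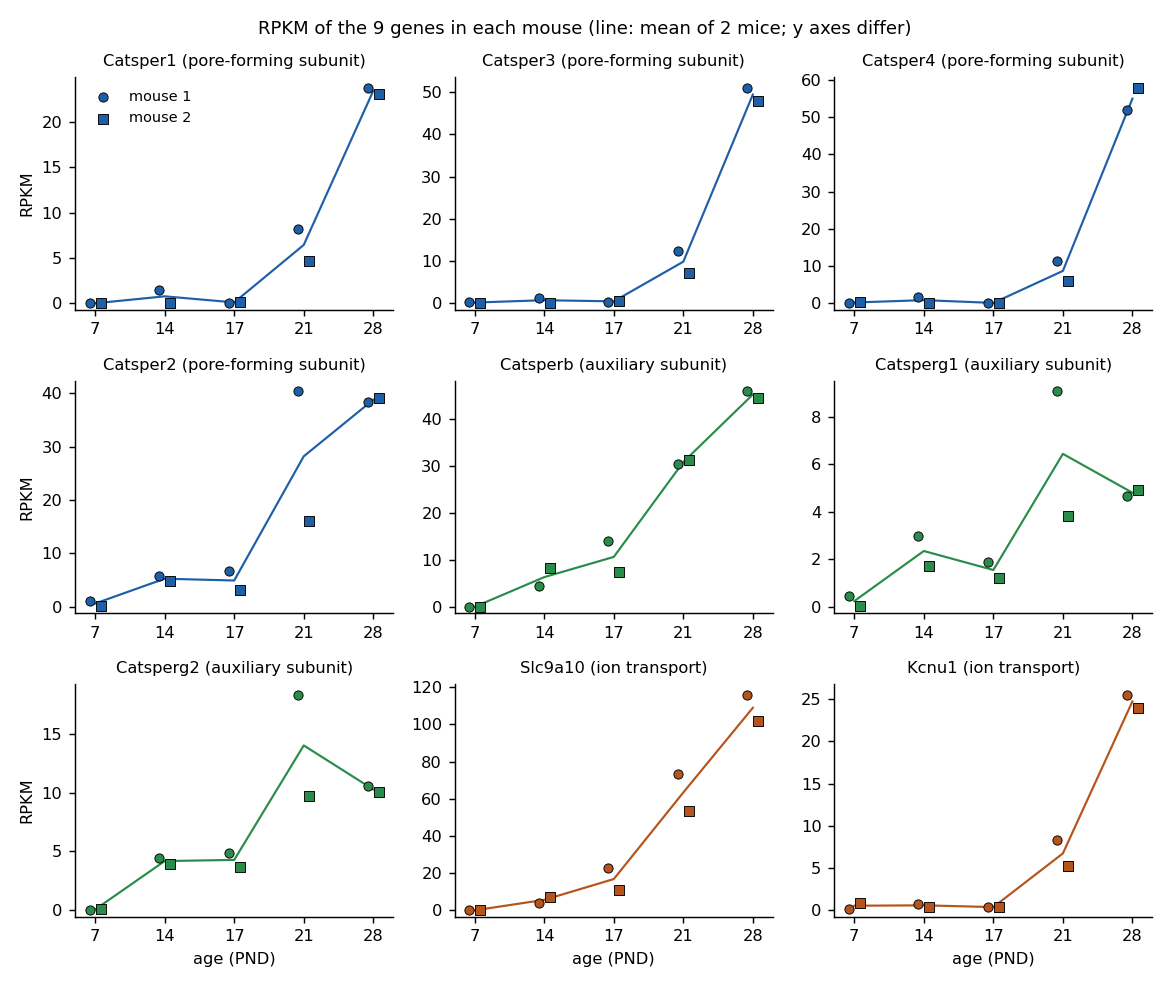
RPKM (y, with a scale of its own in each panel) of the 9 genes against age in PND (x), with a circle for mouse 1, a square for mouse 2 and a line through the means of 2 mice. Catsper1, Catsper3, Catsper4 and Kcnu1 lie near 0 up to PND 17, and the others leave 0 by PND 14.

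As a result the makeup of the pore transcripts changed with age. Catsper2 was 95% of the summed RPKM of the 4 pore genes in PND 14 mouse 2, and 93.3% and 79.9% in the PND 17 mice. It was 56.5% in PND 14 mouse 1. At PND 21 its share was 55.8% and 47.0%, and at PND 28 it was 23.3% in both mice. Catsper4 and Catsper3 had by then become the most abundant, with Catsper4 at 31.5% and 34.5% and Catsper3 at 30.9% and 28.5% of the sum, while Catsper1 was at 14.4% and 13.8%. The sum itself went from 7.11 and 4.03 RPKM at PND 17 to 165 and 168 RPKM at PND 28. These shares are descriptions of RPKM, which corrects for exon length, and carry no test.

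**Figure D3:**
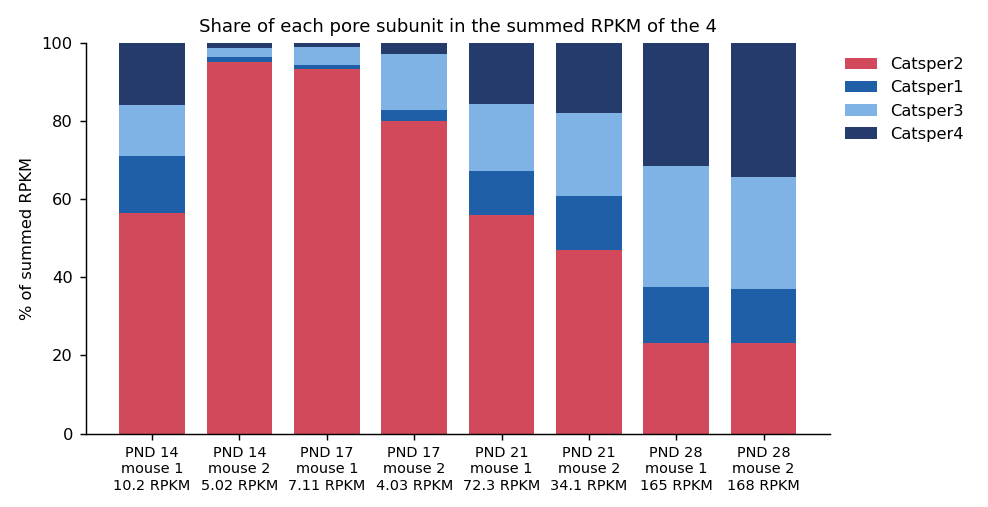
Percent of the summed RPKM of Catsper1 to Catsper4 (y) that each gene makes up in the 8 mice from PND 14 to PND 28 (x, with the sum in RPKM under each bar). Catsper2 takes 79.9% to 95% in PND 14 mouse 2 and the PND 17 mice and 23.3% in both PND 28 mice, and PND 14 mouse 1 differs from its partner.

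Among the auxiliary subunits, Catsperb (ENSMUSG00000047014, mm9 chr12:102642883-102864219, plus strand) had 0 reads in both PND 7 mice and rose over the following ages. It was at 4.39 and 8.25 RPKM on PND 14, 13.9 and 7.33 on PND 17, 30.4 and 31.3 on PND 21, and 45.9 and 44.6 on PND 28. Here PND 14 mouse 1 was the lower mouse of its age, the reverse of Catsper1, Catsper3 and Catsper4. The mice of neighbouring ages overlapped at PND 14 and 17 and were apart from PND 17 on.

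The gamma subunit has a pair of genes on chromosome 7 in the mouse. Catsperg1 (ENSMUSG00000049676, mm9 chr7:29966340-29999054, minus strand) was at 0.465 and 0.015 RPKM on PND 7, 3.0 and 1.70 on PND 14, 1.90 and 1.2 on PND 17, 9.07 and 3.81 on PND 21, and 4.68 and 4.93 on PND 28. Catsperg2 (ENSMUSG00000049123, mm9 chr7:30482238-30512051, minus strand) was at 0.025 and 0.125 RPKM on PND 7, 4.46 and 3.9 on PND 14, 4.86 and 3.70 on PND 17, 18.3 and 9.71 on PND 21, and 10.5 and 10.0 on PND 28. For both genes PND 21 mouse 1 was the highest of all 10 mice, and the PND 21 mice lay on either side of the PND 28 mice. Catsperg2 was 1.49 to 3.08 times as high as Catsperg1 in RPKM in all 8 mice from PND 14 on. RPKM divides by exon length, which was 7044 bases for Catsperg1 and 4653 for Catsperg2. Mean CPM, which does not, lay closer together. It was 14.4, 10.1, 44.6 and 39.9 for Catsperg1 at PND 14, 17, 21 and 28. For Catsperg2 it was 17.0, 18.5, 64.5 and 56.3.

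The gamma genes are nearly the same in sequence, which bears on how far their counts can be kept apart. Their longest coding sequences, of 3456 and 3438 bases, were identical at 96.4% of 3435 aligned bases, with an identical run of 341 bases at the longest. Of all stretches of 50 bases, the length of a read, in the exons of Catsperg2, 37.4% occurred again in Catsperg1. Of those in the exons of Catsperg1, 20.1% occurred again in Catsperg2. Over the whole mm9 genome, 43.6% of the stretches of Catsperg1 and 37.4% of those of Catsperg2 occurred more than once, against 13.9% for Catsperb and at most 1.59% for each of the other 6 genes. The authors counted reads with a unique position, so reads from stretches that occur more than once were open to being left out or split. The level of either gamma gene is thus uncertain. The genes can be told apart in stretches such as the following 60 coding bases, from base 1652 of both coding sequences (Catsperg1 at chr7:29980479-29980538 and Catsperg2 at chr7:30495075-30495134 in mm9, both on the minus strand), where the 13 bases that differ are in capitals.
Catsperg1: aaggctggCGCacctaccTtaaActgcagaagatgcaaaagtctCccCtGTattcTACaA
Catsperg2: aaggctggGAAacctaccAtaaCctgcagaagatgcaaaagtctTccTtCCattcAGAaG

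Of the transport genes, Slc9a10 (ENSMUSG00000033210, mm9 chr16:45535422-45607114, plus strand) reached the highest level of all 9. It had 0 reads in both PND 7 mice, 3.83 and 7.42 RPKM on PND 14, 22.9 and 10.8 on PND 17, 73.1 and 53.6 on PND 21, and 116 and 102 on PND 28. The mice of successive ages did not overlap at any step, and the course resembled that of Catsperb, with r = 0.994 for log2(CPM + 1) over the 10 mice, which share their libraries and ages. Kcnu1 (ENSMUSG00000031576, mm9 chr8:26960095-27048405, plus strand) was low until PND 17 and then rose. It was at 0.205 and 0.885 RPKM on PND 7, 0.75 and 0.43 on PND 14, 0.42 and 0.35 on PND 17, 8.28 and 5.20 on PND 21, and 25.5 and 24.0 on PND 28. In this it was most like the late pore subunits, with r = 0.990 to Catsper4, 0.980 to Catsper3 and 0.979 to Catsper1, against 0.673 to 0.824 for the other 5 genes.

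At PND 28 the genes stood, from high to low mean RPKM ± SD (n = 2), in the order Slc9a10 at 109 ± 9.82, Catsper4 at 55.0 ± 4.11, Catsper3 at 49.5 ± 2.23, Catsperb at 45.2 ± 0.926, Catsper2 at 38.8 ± 0.488, Kcnu1 at 24.7 ± 1.10, Catsper1 at 23.4 ± 0.453, Catsperg2 at 10.3 ± 0.354 and Catsperg1 at 4.81 ± 0.177. Catsper4 and Catsper3 did not differ by more than the sum of their SDs, and neither did Kcnu1 and Catsper1. At PND 17 the order was another one, with Slc9a10 at 16.8 ± 8.55, Catsperb at 10.6 ± 4.67, Catsper2 at 4.93 ± 2.41 and Catsperg2 at 4.28 ± 0.820 above Catsperg1 at 1.55 ± 0.495, and Catsper3, Kcnu1, Catsper1 and Catsper4 all below 1 RPKM. Of the first 4, no neighbours differed by more than the sum of their SDs at that age.

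Set against their own PND 28 means, the genes were spread widely at PND 21. Catsper4 had reached 15.8%, Catsper3 19.9%, Kcnu1 27.3% and Catsper1 27.5% of the PND 28 RPKM, whereas Slc9a10 was at 58.2%, Catsperb at 68.2% and Catsper2 at 72.7%. Catsperg1 and Catsperg2 were at 134% and 136%. At PND 17 Catsper1, Catsper3, Catsper4 and Kcnu1 had reached 0.173% to 1.56% and the other 5 genes 12.7% to 41.7%. The values at PND 21 rest on mice that differ, since Catsper2 was at 104% in mouse 1 and 41.3% in mouse 2. They were lower in CPM, where Catsperg1 and Catsperg2 were at 112% and 115%, Catsper2 at 60.6% and Slc9a10 at 49.4% of their PND 28 means.

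**Figure D4:**
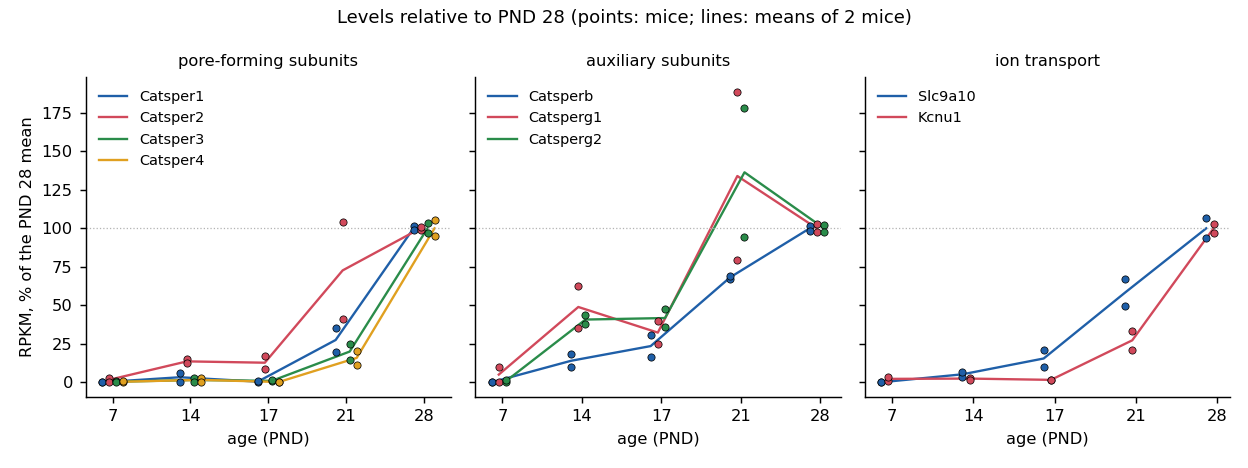
RPKM as a percent of the mean at PND 28 (y) against age in PND (x), for the pore-forming subunits, the auxiliary subunits and the ion transport genes, with points for mice and lines for means of 2 mice. At PND 21 the means run from 15.8% for Catsper4 to 136% for Catsperg2, and Catsper2 lies apart from the other pore subunits from PND 14 on.

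To see which changes exceeded the spread between mice, successive ages were compared with edgeR's quasi-likelihood test over all 16860 genes and all 10 mice. A call needed at least a 2-fold change and an adjusted p (Benjamini-Hochberg) below 0.05. Fold changes are of TMM-scaled counts, on a log2 scale, with their standard error (SE).

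PND 7/14 asks what changes as the first spermatocytes appear. From PND 7 to PND 14, 6 of the 9 genes rose and none fell, where 13.5% of all genes tested rose. The 6 were the 3 auxiliary subunits, Slc9a10, Catsper2 and Catsper1. Catsperb and Slc9a10, without a read at PND 7, were at least 121-fold and at least 118-fold higher in the PND 14 mean (adjusted p = 5.01e-05 and 8.37e-05). The floor was 3 counts over both PND 7 mice, and lower bounds of this kind, here and below, use the mean of the later mice. By the lower PND 14 mouse the bounds were 80-fold and 76.1-fold. Catsperg2 rose by 5.79 ± 0.52 (log2, SE, n = 2 mice an age, adjusted p = 3.35e-05), Catsperg1 by 3.04 ± 0.72 (adjusted p = 0.0134) and Catsper2 by 2.90 ± 0.63 (adjusted p = 0.00844). Catsper3 at 1.88 ± 1.04 (adjusted p = 0.213), Catsper4 at 1.89 ± 1.02 (adjusted p = 0.202) and Kcnu1 at 0.08 ± 0.53 (adjusted p = 0.931) did not pass the test. All 5 spermatocyte markers rose at this step as well, and so did 3 of 5 round spermatid and 5 of 5 elongating spermatid markers, of which Acrv1, Tssk1, Prm1, Prm2 and Tnp2 had 0 reads at PND 7. At PND 14 the elongating spermatid markers summed to 448 RPKM in mouse 1 and 16.8 in mouse 2. The round spermatid markers summed to 27.9 and 14.4. In the paper, early pachytene spermatocytes were the most mature germ cells found at PND 14. The part of any cell type, or of PND 14 mouse 1, in these rises was not tested.

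The call of Catsper1 at PND 14 rested on a single mouse. Its 24 reads at that age, 23 of them in mouse 1, put its mean at least 7.74-fold above the floor of PND 7 (adjusted p = 0.0281). Mouse 2 alone, at 0.764 times that floor, lay below it. Without PND 14 mouse 1 the adjusted p was 0.282, and it was 0.0722 and 0.0873 without PND 7 mouse 1 and 2 and 0.0885 to 0.219 with limma on log2 RPKM. Without PND 14 mouse 1, Catsper3 was at -0.74 and Catsper4 at -1.55 on the log2 scale, both still short of a call, and the other 5 genes called kept their calls. The median log2 fold change of the 9 genes was 3.04, or 2.95 with the genes without a read at their lower bounds, beside 0.11 over all genes tested.

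From PND 14 to PND 17, across the time when spermatocytes mature, no gene of the 9 was called and edgeR called 0 of all genes tested, or 0%, higher. At an unadjusted p under 0.05 there were 4 of the 9 and 769 of all genes. DESeq2 and limma at the same thresholds called none of the 9 either, while limma under the study's own criteria, given below, called 1. Without the filter on low counts edgeR called Slc9a10 higher at PND 17 (log2 1.66, adjusted p = 3.61e-06). In that fit it called Catsper1 and Catsper4 lower (log2 -2.94 and -3.12, adjusted p = 0.0162 and 0.0022). Slc9a10 was 1.65 ± 0.40 higher at PND 17 (log2, SE, unadjusted p = 0.00222, adjusted p = 1) and Catsperb 0.83 ± 0.37 higher (unadjusted p = 0.0471). The mice of these ages did not overlap for Slc9a10 and overlapped for Catsperb. In reads pooled over the mice of an age, Catsper1 and Catsper4 were lower at PND 17. Their ratios were 0.113 (95% counting interval 0.0218 to 0.372) and 0.101 (0.0195 to 0.327). These intervals leave out the spread between mice. PND 14 mouse 1 held 23 of the 24 reads of Catsper1 and 26 of the 27 of Catsper4 at that age. In edgeR, which takes that spread into account, the unadjusted p was 0.0259 and 0.0253. Without PND 14 mouse 1 these 2 genes instead stood at 0.29 and 0.29 above PND 14 on the log2 scale, and without PND 14 mouse 2 they were called lower at PND 17 (adjusted p = 0.0322 and 0.0486). Catsper2 and Catsperg2 lay at 0.03 ± 0.53 and 0.13 ± 0.33, with 95% intervals of the log2 fold change from -1.15 to 1.2 and from -0.60 to 0.86. Catsper3, Catsperg1 and Kcnu1 lay at -0.79 ± 0.91, -0.47 ± 0.62 and -0.50 ± 0.56.

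PND 17/21 spans the appearance of round spermatids. Between these ages 8 of the 9 genes rose, among them all 4 pore-forming subunits, where 9.29% of all genes tested rose. The late pore subunits rose the most. Catsper4 went from 3 reads to 173, a ratio of 107 (95% counting interval 36.2 to 526, adjusted p = 0.00355). Catsper1 went from 3 reads to 126, a ratio of 78.3 (26.2 to 385, adjusted p = 0.00503). Catsper3 rose by 4.68 ± 0.74 (log2, SE, adjusted p = 0.00455) and Kcnu1, whose product sets the membrane voltage of sperm, by 4.18 ± 0.50 (adjusted p = 0.00182).

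The genes already present at PND 17 rose by less. Catsper2 rose by 2.56 ± 0.55 (log2, SE, adjusted p = 0.0148), Slc9a10 by 2.01 ± 0.40 (adjusted p = 0.0122), Catsperg2 by 1.79 ± 0.33 (adjusted p = 0.00837) and Catsperb by 1.65 ± 0.37 (adjusted p = 0.0195). Catsperg1, at 2.1 ± 0.63, missed the threshold with an adjusted p of 0.0547, and DESeq2 called it with an adjusted p of 0.00561. Round spermatid markers moved with these genes, with 5 of 5 called higher and summed RPKM of 15.4 and 14.7 at PND 17 and 158 and 99.1 at PND 21, while none of the 5 spermatocyte markers was called. Their part in the rise was not tested. The number of genes called fell to 3 when PND 17 mouse 1 was left out and to 4 when PND 17 mouse 2 or PND 21 mouse 1 was, and Kcnu1 was called in each case. No fold change turned its sign under any setting of this comparison, and the median was 2.56 for the 9 genes beside 0.00 for all genes tested.

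**Figure D5:**
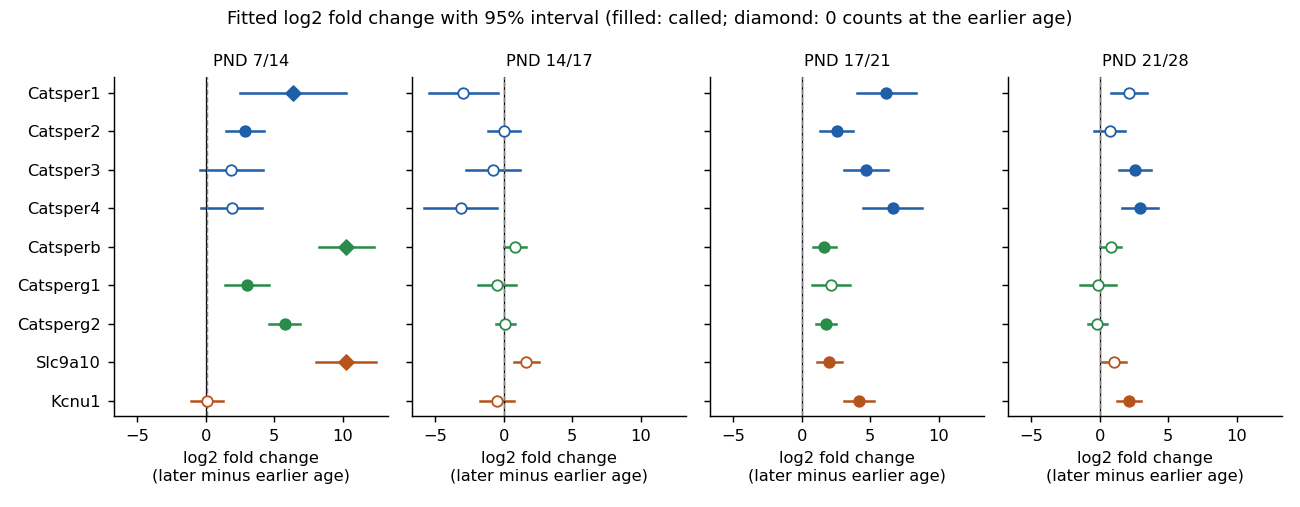
Fitted log2 fold change (x) with its 95% interval for the 9 genes (y) at each step between ages, where filled symbols are called, diamonds mark genes with 0 counts at the earlier age and the dashed line is the median of all genes tested. Catsper1, Catsper3, Catsper4 and Kcnu1 lie farthest to the right at PND 17/21, and Catsperg1 and Catsperg2 lie at -0.16 and -0.19 at PND 21/28.

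From PND 21 to PND 28, when spermatids elongate, the genes divided. Catsper3, Catsper4 and Kcnu1 rose, which are 3 of the 9, where 7.37% of all genes tested rose. Catsper4 rose by 2.92 ± 0.59 (log2, SE, adjusted p = 0.012), Catsper3 by 2.58 ± 0.53 (adjusted p = 0.0128) and Kcnu1 by 2.12 ± 0.40 (adjusted p = 0.00743). Catsper1, with a log2 fold change of 2.12 ± 0.59, had an adjusted p of 0.0576 in edgeR and 0.0119 in DESeq2, which in turn gave 0.116 for Catsper4. Its mice did not overlap between the ages. Elongating spermatid markers moved with these genes, with 5 of 5 called higher and summed RPKM of 104 and 92.8 at PND 21 and 8619 and 10640 at PND 28, as did 4 of 5 round spermatid markers and 3 of 5 Leydig cell markers (Cyp17a1, Cyp11a1, Star, Hsd3b1 and Insl3, 110 and 204 against 577 and 454 summed RPKM). Their part in the changes was not tested. The median log2 fold change of the 9 genes was 1.02, beside 0.03 over all genes tested.

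The auxiliary subunits were not called at this step. Catsperg1 lay at -0.16 (95% interval -1.47 to 1.16) and Catsperg2 at -0.19 (-0.90 to 0.51) on the log2 scale, so that a 2-fold rise or fall lies inside the interval of Catsperg1 and outside that of Catsperg2. Catsperb lay at 0.77 (-0.02 to 1.56, adjusted p = 0.22), Catsper2 at 0.73 (-0.40 to 1.85, adjusted p = 0.419) and Slc9a10, the exchanger, at 1.02 (0.16 to 1.88, adjusted p = 0.145). Without PND 21 mouse 1, the mouse in which the gamma genes were highest, Catsperg1 stood at 0.48 and Catsperg2 at 0.22. The 3 calls depended on having both mice at each age, since 1 remained without PND 21 mouse 1 or PND 28 mouse 2 and none without PND 21 mouse 2 or PND 28 mouse 1. With 1 mouse left at an age the fit takes its spread from the other ages.

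Across both steps, from PND 17 to PND 28, all 9 genes rose, where 22.5% of all genes tested rose. This comparison shares its mice with those above. Catsper4 had a ratio of 827 (95% counting interval 283 to 4017) and Catsper1 one of 352 (120 to 1710), from 3 reads each at PND 17. Catsper3 rose by 7.26 ± 0.74 (log2, SE, adjusted p = 5.79e-05), Kcnu1 by 6.30 ± 0.51 (adjusted p = 2.25e-05), Catsper2 by 3.29 ± 0.56 (adjusted p = 0.0011), Slc9a10 by 3.03 ± 0.41 (adjusted p = 0.0004) and Catsperb by 2.42 ± 0.37 (adjusted p = 0.000819). The gamma genes rose the least, Catsperg1 by 1.94 ± 0.63 (adjusted p = 0.0311) and Catsperg2 by 1.59 ± 0.33 (adjusted p = 0.00353). Catsperg1 alone of the 9 lost its call when any mouse of these ages was left out (adjusted p = 0.0899 and 0.175 without PND 17 mouse 1 and 2, 0.105 and 0.0981 without PND 28 mouse 1 and 2) and with scaling by library totals (adjusted p = 0.0693) and in limma on log2(RPKM + 0.1) (adjusted p = 0.107).

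Whether a gene rose by a different amount at PND 21/28 than at PND 17/21 was tested as a contrast of its own. None of the 9 was called by edgeR, DESeq2 or limma, and 5 of the 9 were under an unadjusted p of 0.05, as were 1489 of the 16860 genes tested. Of all genes tested 0.0356% had a larger rise at PND 21/28 and 0% a smaller one. All 9 differences were negative, with Catsperg2 at -1.98 ± 0.54 (log2, SE, adjusted p = 0.364), Catsper4 at -3.72 ± 1.38 (adjusted p = 0.499) and Catsper1 at -4.05 ± 1.32 (adjusted p = 0.468). Catsper2, Catsper3, Catsperg1 and Kcnu1 lay between -2.26 and -1.83, and Catsperb and Slc9a10 at -0.87 and -0.99. The calls depended on the fit. Without the filter on low counts edgeR called a smaller rise at PND 21/28 for Catsper1 (adjusted p = 0.00201), Catsper4 (0.00131), Catsperg1 (0.021), Catsper2 (0.0267) and Catsperg2 (0.0341), and in a fit of just the mice compared it did so for Catsper1 (0.0345) and Catsper4 (0.0461).

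Of 21 further symbols of the CatSper complex and of sperm ion transport, 17 were found in the annotation as 18 gene entries, of which 16 were tested. By edgeR 10 of the 16 rose at PND 7/14 (13.5% of all genes tested), 11 at PND 17/21 (9.29% of all), 3 from PND 21 to 28 (7.37% of all) and 12 over PND 17/28 (22.5% of all). At PND 14/17 the number was 0, with 4 under an unadjusted p of 0.05, and none was called lower in any comparison. The 11 calls became 4 and 1 without PND 17 mouse 1 and 2, 2 and 7 without PND 21 mouse 1 and 2, and 7 without PND 28 mouse 1. The 3 calls became 0 when either PND 21 mouse or PND 28 mouse 1 was left out, 1 without PND 28 mouse 2 and 6 without either PND 7 mouse. These fits were added after the values had been seen. Further subunits of the complex fell on either side of the divide seen among the 9 genes. Tmem146, the delta subunit, was at 7.48 and 12.6 RPKM on PND 14, 25.5 and 11.4 on PND 17, 49.3 and 45.8 on PND 21, and 80.4 and 67.2 on PND 28. Tex40, the zeta subunit, was the most abundant of all these genes, with 44.1 and 57.5 RPKM on PND 14 and then 639 and 535 on PND 28. Slco6c1, a transporter-like protein found in the complex, had no read at PND 7 and 7.57 and 16.2 RPKM at PND 14, at least 172-fold higher (adjusted p = 8.6e-05).

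Efcab9, the calcium sensor that partners the zeta subunit, was below 1 RPKM in all mice up to PND 17 except PND 14 mouse 1. It was at 0.205 and 0 RPKM on PND 7, 3.88 and 0.69 on PND 14, 0.80 and 0.49 on PND 17, 24.4 and 18.9 on PND 21, and 111 and 101 on PND 28. It was called higher at PND 7/14 (adjusted p = 0.0127), where mouse 1 held 31 reads and mouse 2 held 5, and leaving out PND 14 mouse 1 or PND 7 mouse 2 raised the adjusted p to 0.119 or 0.0649. It rose by 5.0 ± 0.61 at PND 17/21 (log2, SE, adjusted p = 0.00193) and by 2.52 ± 0.44 at PND 21/28 (adjusted p = 0.00559). The call at PND 17/21 held without any single mouse, and that at PND 21/28 was lost without PND 21 mouse 1, PND 21 mouse 2 or PND 28 mouse 1 (adjusted p = 0.0587, 0.0761 and 0.0647). Efcab9 and Tex40, whose products bind each other, thus stood at different shares of their PND 28 level at PND 17, at 0.611% and 18.6%. Lrrc52, the auxiliary subunit of the KCNU1 channel, had no read at PND 17, 2.22 and 1.29 RPKM on PND 21, and 10.8 and 7.99 on PND 28, and it was at least 12.2-fold higher at PND 21 than at PND 17 (adjusted p = 0.0204, and 0.0636 to 0.163 without PND 17 mouse 1 or 2, PND 21 mouse 1 or PND 28 mouse 1). Atp1a4, the sodium pump subunit of sperm, had no read at PND 7 and was at 6.17 and 0.33 RPKM on PND 14, 0.44 and 0.59 on PND 17, 13.8 and 6.79 on PND 21, and 125 and 151 on PND 28. At PND 14 mouse 1 held 164 of its reads and mouse 2 held 8, and it was called higher than at PND 7 with both mice (adjusted p = 0.0095) and without PND 14 mouse 1 (adjusted p = 0.0185). Without PND 14 mouse 2 it was called lower at PND 17 than at PND 14 (adjusted p = 0.00525).

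Nhedc1, a sodium-proton antiporter of sperm, rose at PND 17/21 by 1.53 ± 0.39 (log2, SE, adjusted p = 0.0305), and Adcy10, the soluble adenylyl cyclase that answers bicarbonate, by 2.37 ± 0.47 (adjusted p = 0.0105). Both calls were lost without PND 17 mouse 1, PND 17 mouse 2 or PND 21 mouse 1 (adjusted p = 0.0697, 0.263 and 0.109 for Nhedc1 and 0.0516, 0.123 and 0.0766 for Adcy10), and that of Nhedc1 without PND 21 mouse 2 or either PND 28 mouse too (0.0525 to 0.0871). Kcnma1, Hvcn1 and Slc26a6 were not called at any step. Kcnma1, the large-conductance potassium channel related to Kcnu1, was between 1.91 and 5.71 RPKM in all 10 mice. Hvcn1, a proton channel, was between 0.28 and 2.30 RPKM. Slc26a6, an anion exchanger, was at 4.60 and 6.47 RPKM on PND 7 and then 0.61 and 0.57 on PND 28.

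To see what lies upstream of the genes, the 250 bases before the RefSeq start were read where a table of RefSeq promoters (GRCm38.p6) held them, which was so for 6 of the 9 genes. Of these, Catsperb and Slc9a10 are shown as the pair with the closest courses, both without a read at PND 7, and Catsper4 as a gene that stayed low until PND 17. Each was found once in mm9, at chr12:102642633-102642882 (plus strand), chr16:45535129-45535378 (plus strand) and chr4:133783299-133783548 (minus strand). Capitals mark the motif CAACNG on either strand, the core of sites bound by MYB factors.
Catsperb: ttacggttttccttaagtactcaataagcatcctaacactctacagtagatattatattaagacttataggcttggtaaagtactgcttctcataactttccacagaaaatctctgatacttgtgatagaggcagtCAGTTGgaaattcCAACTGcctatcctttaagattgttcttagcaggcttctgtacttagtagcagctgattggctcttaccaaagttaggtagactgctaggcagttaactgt
Slc9a10: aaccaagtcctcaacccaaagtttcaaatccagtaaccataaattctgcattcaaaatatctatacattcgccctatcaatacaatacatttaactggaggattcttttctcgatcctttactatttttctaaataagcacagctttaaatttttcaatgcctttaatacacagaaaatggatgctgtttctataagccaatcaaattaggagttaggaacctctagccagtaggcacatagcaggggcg
Catsper4: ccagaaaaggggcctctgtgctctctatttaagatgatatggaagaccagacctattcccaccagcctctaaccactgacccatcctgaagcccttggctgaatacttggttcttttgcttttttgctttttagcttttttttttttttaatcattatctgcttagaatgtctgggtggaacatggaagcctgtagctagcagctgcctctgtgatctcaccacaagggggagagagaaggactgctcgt

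Catsperb held CAACNG at 2 places, which begin 114 and 101 bases before the start on opposite strands. The motif was present in 29.3% of 32851 promoters of the same length. CAACNG was not found in the windows of the other 5 genes. Also searched on both strands were TGACGTCA, the cyclic AMP response element, which 1.55% of the promoters held, and GTTGCC, a part of sites bound by RFX factors, which 10.4% held, and neither was found in the windows of the 6 genes. Read on the other strand GTTGCC is GGCAAC, which shares the letters CAAC with CAACNG. The share of G and C was 38% for Catsperb, 35.6% for Slc9a10 and 45.2% for Catsper4. A match describes letters in the window and is no evidence of binding. Only these exact letters were sought, so variants of a site were not looked for.

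The genes whose course was most like that of a member were found by Pearson's r of log2(CPM + 1) over the 10 mice, among protein-coding genes that averaged 5 CPM or more, as a description without a test. For Catsper1 they were Ttc23l (r = 0.999), Ddi1 (0.999) and 1700027D21Rik (0.998), and Ddi1 for example went from 0.160 RPKM at PND 17 to 67.3 RPKM at PND 28. For Catsperb they were Spink2 (0.999), Slco6c1 (0.999) and 1700013N18Rik (0.999), and Spink2 was at 61.2 RPKM at PND 14, 356 RPKM at PND 21 and 547 RPKM at PND 28. For Slc9a10 they were 1700010B08Rik (0.999), 4921524L21Rik (0.999) and Abca14 (0.998). For Kcnu1 they were Spaca1 (0.995), a gene of the acrosome of round spermatids, Tssk4 (0.993), a testis-specific kinase, and 4932429P05Rik (0.992). Slco6c1, one of the further genes above, was thus among the genes nearest to Catsperb. The points of these correlations share their libraries and the rise with age of many genes. None of the neighbours named was among the 3 listed first by Spearman's rank correlation, a list in which tied genes were cut off at 3. That correlation was 1.0, which no gene can exceed, for Slco6c1 with Catsperb. It was also 1.0 for 1700010B08Rik and 4921524L21Rik with Slc9a10.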

How the data were processed

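RNA of the whole testis, depleted of ribosomal RNA, was sequenced by the authors on the SOLiD 4 as reads of 50 bp. Per the study's methods the reads were aligned to mm9 with LifeScope v2.1, ribosomal, transfer RNA and repeat reads were removed along with any that aligned at more than 10 places, and unique reads were assigned to Ensembl genes. The authors deposited for each gene the raw count of reads, its RPKM and the number of exons with more than 10 reads. The read length bears on the gamma genes, whose shared stretches are described above.

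Counts of the barcodes of a PND 7 mouse were summed and their RPKM averaged, and symbols came from GENCODE M1. Counts were tested with edgeR 4.0.16 (R 4.3.3) after TMM scaling and filterByExpr in a fit of all 10 mice with age as the only term, and p-values were adjusted over 16860 genes. SE is the log2 fold change divided by the root of F, and intervals are 95%. Counting intervals are exact binomial ones and, like the floor of 3 counts, cover counting error only, which PCR copies of a molecule understate. A permutation of 2 mice against 2 cannot bring 1 gene to p = 0.05 even when exact, so that calls rest on a spread shared across genes. The mice of an age were separate animals. Alternatives were DESeq2 1.42.0, limma 3.58.1 on log2(RPKM + 1) and log2(RPKM + 0.1), other scaling and filters, only the mice of a comparison, a replicate block, separate barcodes, a set without mitochondrial genes and small structural RNAs, the study's criteria and leaving out each mouse, which for the further genes was added after seeing the data. The scripts were tested on simulated data. Tables and figures used Python 3.11.15 and pandas 2.3.3.

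The 9 genes, the further genes and the markers were chosen by symbol with earlier results of these data known. The text names all 9 in each comparison, genes of the further list and of the marker lists, and the 3 nearest genes of Catsper1, Catsperb, Slc9a10 and Kcnu1. Of the further symbols Catspere, Tmem249, Tmem262 and Slc9a11, and of the markers Rhox5, were not matched and were not analysed here. Spermatogonial markers (Zbtb16, Kit, Uchl1 and Stra8) were checked too, and 4 of 4 fell at PND 17/28.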

Additional observations from a re-analysis of the deposited data

How the results depend on the processing

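The numbers of the 9 genes called were 6, 0, 8, 3, 9 and 0 for PND 7/14, 14/17, 17/21, 21/28, 17/28 and the contrast of the steps. They were compared under 12 other settings and without each mouse in turn. None of the calls counted in these numbers turned its sign, but calls made under other settings did. Without the filter on low counts, Catsper1 and Catsper4 were called lower at PND 14/17 (log2 -2.94 and -3.12). They stood at 0.289 and 0.285 there without PND 14 mouse 1. At PND 7/14 Catsper4 was called higher without the filter (log2 1.93) and stood at -1.55 without PND 14 mouse 1. Under the criteria of the study's methods, which ask for a difference of 10 RPKM, the numbers were 0 at PND 7/14, 1 at PND 14/17 and 3 at PND 17/21. Limma on log2(RPKM + 0.1) called 0 at PND 21/28. Without a filter on low counts 3 were called at PND 14/17 and 5 in the contrast of the steps, and when the fit held just the mice compared 2 were called in that contrast. The cause of these was not tested. Leaving out one mouse gave 5 to 7 at PND 7/14, 0 to 2 at PND 14/17, 3 to 9 at PND 17/21, 0 to 4 at PND 21/28, 8 to 9 at PND 17/28 and 0 to 0 in the contrast.

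Mouse numbers did not pair the mice, which were different animals at each age, and deviations of same-numbered mice correlated from -0.17 to 0.343. The highest value was that of PND 14 mouse 1 with PND 21 mouse 1, and the next was 0.119. The cause of the highest was not tested. With a replicate block the numbers were 6, 0, 9, 3, 9 and 0. Scaling by library totals moved the median of all genes by -0.217 at PND 21/28 and by -0.323 at PND 17/28 (log2), and with it 8 genes were called at PND 17/28. As percents of PND 28 in TMM-scaled CPM rather than RPKM, Catsper2 was at 10.1% and Catsperg2 at 30.3% at PND 14, Catsperg2 at 32.8% and Kcnu1 at 1.22% at PND 17, and Catsperb at 58.5% at PND 21. Depth limits the genes with 3 reads over both PND 17 mice, and 2 mice an age limit every comparison.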

Other observations

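The remaining genes of the CatSper and ion transport list were described in neither group above. Slc26a8, an anion exchanger of sperm, was at 4.87 and 6.41 RPKM on PND 14, 13.1 and 8.18 on PND 17, 43.2 and 32.6 on PND 21, and 48.7 and 39.9 on PND 28. It rose by 4.21 ± 0.65 at PND 7/14 (log2, SE, edgeR adjusted p = 0.00118) and by 1.93 ± 0.50 at PND 17/21 (adjusted p = 0.0307, and 0.0571 to 0.27 without any one mouse of PND 17, 21 or 28), and the PND 21 and PND 28 mice overlapped, as they did for Catsperg1, Catsperg2 and Catsper2. Als2cr11, whose product belongs to the CatSper complex, has a pair of gene entries in the annotation under this symbol, and both rose at PND 7/14 and at PND 17/21. At PND 17/21 both calls were lost without PND 17 mouse 2, and 1 of them also without PND 17 mouse 1 or PND 21 mouse 1. At PND 28 these entries were at 103 and 131 RPKM and at 97.5 and 124 RPKM in mouse 1 and 2.

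Cftr, the chloride and bicarbonate channel, was low throughout, between 0.66 and 5.29 RPKM in the 10 mice, and was called higher over PND 17/28 only, by 1.52 ± 0.36 (adjusted p = 0.00754, and 0.0514 to 0.0654 without PND 17 mouse 1 or 2 or PND 28 mouse 2). Atp2b4, a plasma membrane calcium pump, was between 7.53 and 22.5 RPKM and was not called in any comparison. Its lowest level at PND 7 was 12.3 RPKM, above that of each of the 9 genes in the same mice. Slc26a3 and Nhedc2 were listed at 0 in both PND 28 mice and had too few reads to be tested.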
